A study of Homo sapiens with 6 samples.

Results

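The genes that join epithelial cells to each other, set up their polarity and build their simple keratin filaments were followed in H661 cells, derived from a human large cell carcinoma of the lung, after knockdown of SALL4. The set was given as 39 gene symbols, and a gene was measured where the platform annotation tied a probe set to that symbol alone. Of the 39, 35 were measured, out of 18404 genes so measured on the arrays. OCLN and CTNND1 had only a probe set shared with another gene symbol, and together with F11R and ESRP1 they were not analysed here. RNA came from 3 samples transduced with a lentiviral SALL4 shRNA (SALL4-sh) and 3 transduced with a scrambled shRNA (Scr-sh), and each was hybridised to its own Affymetrix array to ask which transcripts depend on SALL4 in these cells. The knockdown was made with a single hairpin in a single cell line, and the sample labels give 10% serum for the culture of both groups. The methods of the study state a higher serum percentage for keeping H661 cells. A general statement of the study speaks of independent experiments, but nothing in the sources used here says of the 3 arrays of a group that they were separate cultures, so each p-value reflects only how much these samples differ among themselves, and that spread may be technical.

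In an epithelial sheet, claudins and the MARVEL proteins seal the tight junction, and the ZO proteins anchor it to actin. The PAR and Crumbs complexes mark out the apical side. Desmosomes hold the keratin filaments of neighbouring cells together: desmogleins and desmocollins bridge the gap, plakoglobin and plakophilins bind their tails, and desmoplakin and the plakins reach the keratins. Keratins 8, 18, 19 and 7 form the filaments of simple epithelium. ESRP splicing factors, GRHL2 and OVOL1 keep this programme on, and ZEB factors repress much of it.

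Values are normalized intensities on a linear scale whose lowest value is a floor of 8, so a value of 8 says only that the signal was no higher. The level of a probe set was not set against that of another, and each gene was compared with itself. Intensities summed over a marker list only describe that list in the samples. In a bulk culture, fewer cells that express a gene and less RNA per cell cannot be told apart. SALL4 itself was at 33.6, 31.9 and 26.5 in SALL4-sh, against 125.5, 104 and 130.2 in Scr-sh, which gave a log2 change of -1.97 (standard error 0.17). On each array 38.8% to 40.4% of the probe sets stood at the floor, and no pair of arrays was identical. Over all probe sets, the correlation of log2 values was 0.969 to 0.980 between arrays of a group and 0.955 to 0.965 between groups.

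The set did not move as a block. Of the 28 members that could be tested, 2 rose and 1 fell with SALL4 knockdown (limma, adjusted p under 0.05 by Benjamini-Hochberg over the 13803 genes tested). These 3 are 10.7% of the 28, beside 11.5% of all genes tested (5.95% higher and 5.54% lower), so the share of called members is close to the background. DSC2, the desmosomal cadherin desmocollin 2, fell most. PARD6B, a scaffold of the PAR polarity complex, and PKP4, a plakophilin-related armadillo protein of cell junctions, rose. The other 25 had log2 changes of -0.70 to 0.30, 15 below and 10 above 0, and 18 of the 25 lay within 0.3 of 0. The median log2 change of the 28 was -0.09, beside 0.02 for all genes tested. The remaining 7 measured members, CLDN1, CLDN4, CLDN6, MARVELD2, DSC3, DSG3 and GRHL2, stood at 8 on all 6 arrays and were left out of the test.

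Counted by arrays alone, 2 members had every SALL4-sh value above every Scr-sh value and 4 had every one below. These 6 are 21.4% of the 28 above the floor, while 27.5% of the 14511 genes above the floor on at least 1 array had groups apart in this way (15.0% higher and 12.5% lower). Without a filter on weak genes 1 member was called higher and 0 lower by limma, beside 2.51% of all 18404 genes (1.18% higher and 1.33% lower). In that test 462 genes were called in all. After the filter, limma's unadjusted p was under 0.05 for 7 of the 28, 2 of them higher and 5 lower. This is 25% of the 28, beside 24.7% of all genes tested.

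**Figure D1:**
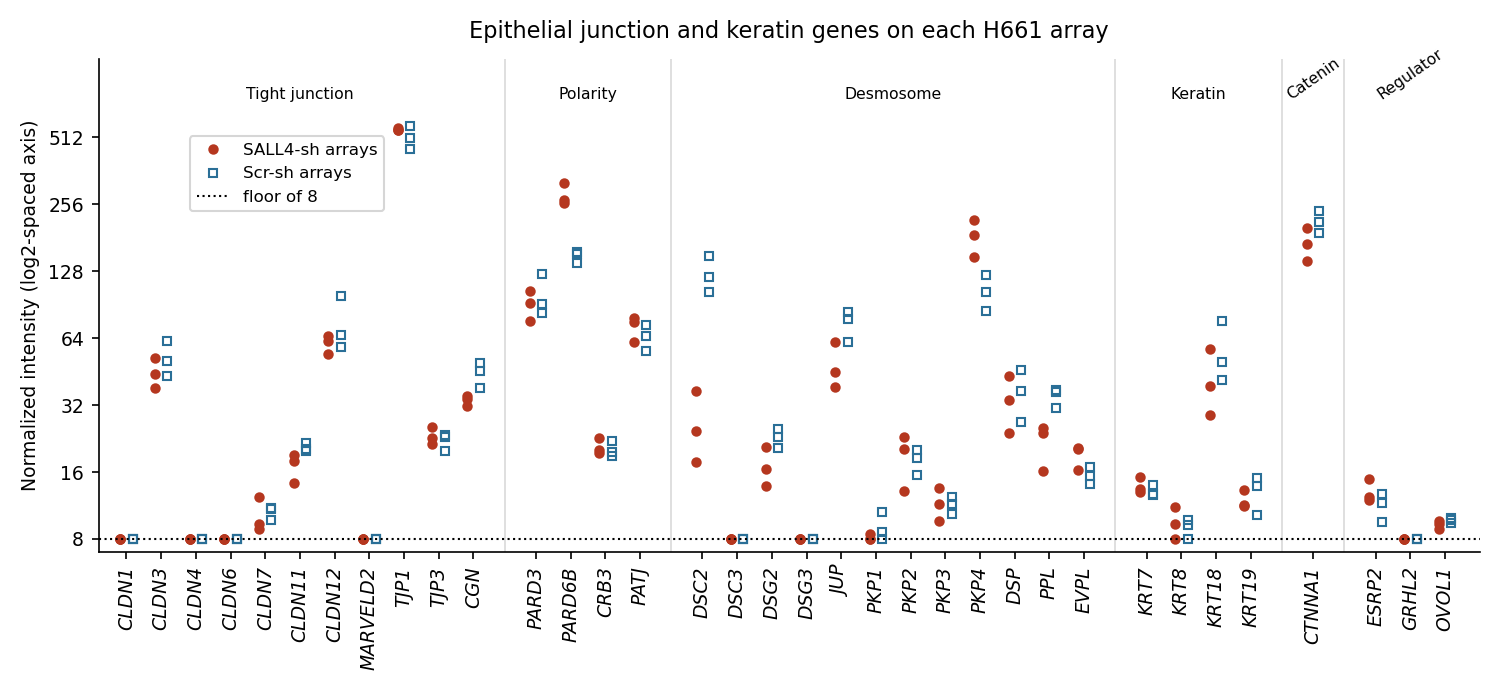
Normalized intensity of the 35 measured members on each array, on a log2-spaced axis and grouped by role, with filled circles for the 3 SALL4-sh arrays, open squares for the 3 Scr-sh arrays and a dotted line at the floor of 8. The groups lie far apart for DSC2 (means 26.4 in SALL4-sh and 124 in Scr-sh) and PARD6B (282 and 149), and 7 members lie on the floor on every array.

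**Figure D2:**
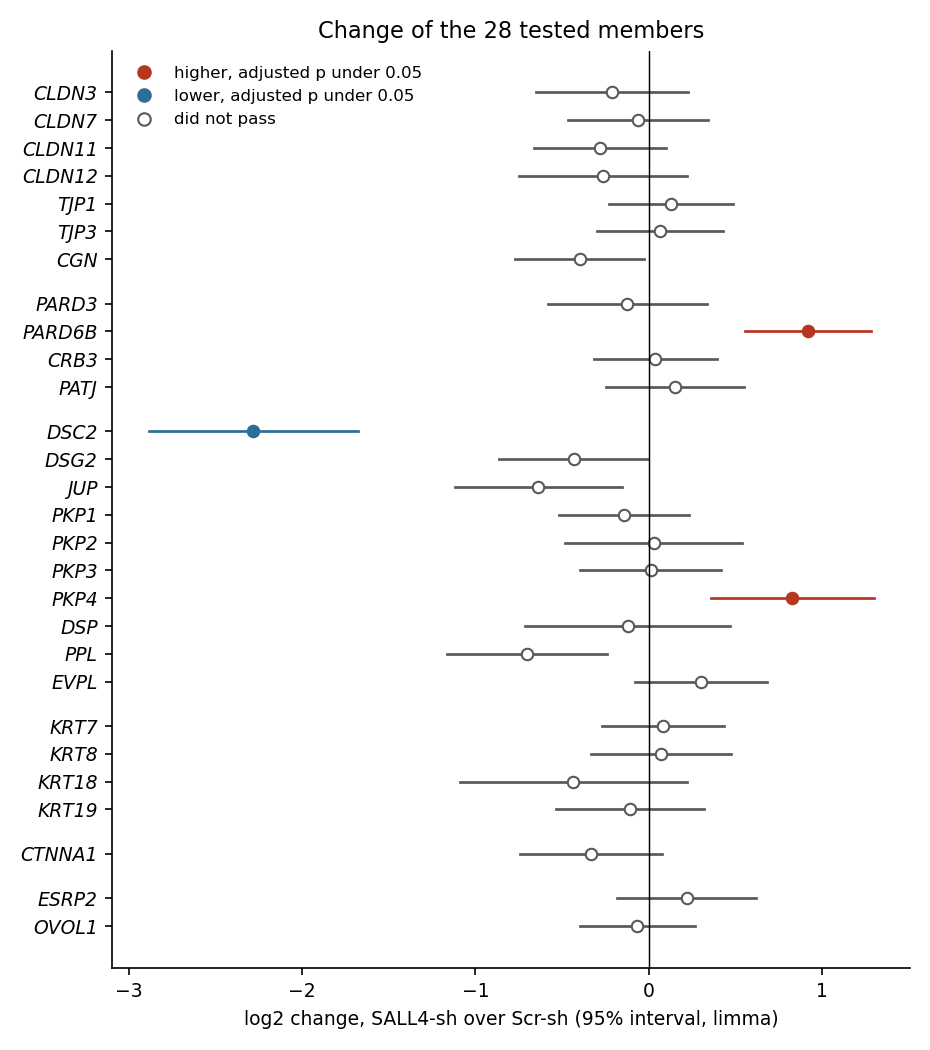
Log2 change (SALL4-sh minus Scr-sh) of the 28 tested members in the order of their roles, with the 95% interval that limma gives for 3 arrays in each group and filled points for an adjusted p under 0.05. DSC2 stands alone at -2.28, PARD6B and PKP4 lie at 0.92 and 0.83, and the rest lie between -0.70 and 0.30.

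DSC2 had the largest change of the 28. It was at 24.4, 37.1 and 17.8 in SALL4-sh, against 119.9, 150.2 and 103 in Scr-sh. Every SALL4-sh array was below every Scr-sh array, and the highest SALL4-sh value was 2.78-fold under the lowest Scr-sh value. By limma its log2 change was -2.28 with a standard error of 0.27 and an adjusted p of 0.00171, a level of 0.206 of Scr-sh with a 95% interval of 0.135 to 0.313. The adjusted p was 0.0548 from limma without the filter and 0.0721 from a one-way test of variance without moderation (the one-way test). A test of that kind is named in the study for these arrays. DSC2 is listed in the signature that the study made from H661 cells with SALL4 knocked down, so its change here is not independent evidence. Permuting its 6 values over all 20 labelings gave an exact two-sided p of 0.1, the smallest possible with 3 against 3 and the value for every member whose groups were apart.

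DSC2 lies in a row of desmosomal cadherin genes, and in the RefSeq gene table of GRCh38.p14 the order is DSC3, DSC2, DSC1, DSG1, DSG4, DSG3 and DSG2 with no other protein-coding gene between them. Of these 7 neighbours, 5 stood at 8 on all 6 arrays, namely DSC3, DSC1, DSG1, DSG4 and DSG3, which are known from stratified epithelium such as skin. DSG2, the desmoglein of simple epithelium, was measured at 16.5, 20.8 and 13.9 in SALL4-sh, against 24.9, 23.0 and 20.6 in Scr-sh. Its groups overlapped between the highest SALL4-sh and the lowest Scr-sh array, and the log2 change of -0.43 did not pass (adjusted p = 0.194 from limma). Of the row's 2 members above the floor, the desmocollin passed the test and the desmoglein had a lower mean that did not. A test of the difference between these changes was not made.

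The regions just upstream of the DSC2 starts, and of the first PKP4 start, are shown as the promoters of the called members that the RefSeq table holds (GRCh38.p14, 250 bases before each start, read in the direction of the gene). Capitals mark the E-box CAGGTG or its reverse complement CACCTG, the sequence that ZEB and SNAIL repressors are known to bind.
DSC2 first start, chr18:31102422-31102671, minus strand: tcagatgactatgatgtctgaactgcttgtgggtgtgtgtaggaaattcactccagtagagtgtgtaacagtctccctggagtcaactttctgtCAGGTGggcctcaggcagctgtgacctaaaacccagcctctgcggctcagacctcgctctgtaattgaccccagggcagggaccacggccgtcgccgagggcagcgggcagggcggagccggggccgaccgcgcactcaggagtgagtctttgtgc
DSC2 second start, chr18:31101261-31101510, minus strand: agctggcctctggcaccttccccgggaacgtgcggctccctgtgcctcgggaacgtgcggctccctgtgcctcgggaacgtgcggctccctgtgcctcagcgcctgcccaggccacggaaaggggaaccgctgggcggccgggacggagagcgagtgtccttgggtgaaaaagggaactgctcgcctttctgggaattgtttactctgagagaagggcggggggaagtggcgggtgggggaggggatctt
PKP4 first start, chr2:158456702-158456951, plus strand: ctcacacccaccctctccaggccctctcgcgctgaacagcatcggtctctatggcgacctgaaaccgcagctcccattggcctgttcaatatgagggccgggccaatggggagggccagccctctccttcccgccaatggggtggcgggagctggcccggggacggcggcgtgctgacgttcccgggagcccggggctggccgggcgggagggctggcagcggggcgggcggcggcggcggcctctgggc
The first DSC2 window held 1 E-box, and the second DSC2 window and both PKP4 windows held 0. Of the 35 measured members, 23 were in the table with 35 windows, of which 9 (25.7%) held an E-box, beside 17.5% of all 35116 windows of this length. The members with a match were CLDN7, CRB3, DSC2, DSG2, DSP, JUP, PATJ, TJP1 and TJP3, and DSC2 is the only called member among them. PARD6B, also called, had no window and so was not searched. The short A and T run AATATT, which cannot overlap the E-box letters and reads the same on both strands, was in 0 of the 35 member windows and in 6.41% of all windows. It was searched because SALL4 is known to bind short AT-rich DNA. For neither sequence was the share among member windows tested against that of all windows, and some members hold more than 1 window. A match is a description of the letters and not a binding site.

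Of the 10 desmosome members tested 1 rose and 1 fell, and their median log2 change was -0.13. At an unadjusted p under 0.05 from limma 1 of the 10 was higher and 4 lower (DSC2, DSG2, JUP and PPL). Over all genes tested, 13.6% were higher and 11.1% lower by that measure. PKP4 was the desmosome member that rose. It was at 186, 218 and 148 in SALL4-sh, against 123, 84.3 and 103 in Scr-sh. The lowest SALL4-sh array lay 1.2-fold above the highest Scr-sh array. By limma its log2 change was 0.83 with a standard error of 0.21 and an adjusted p of 0.0332, or 1.78-fold with a 95% interval of 1.28 to 2.46. This call was lost without the filter (adjusted p = 0.158 from limma) and when any 1 array other than Scr-sh replicate 1 was left out (adjusted p = 0.0569 to 0.151 from limma). Periplakin (PPL), which links desmosomes to keratins, was at 24.1, 25.3 and 16.2 in SALL4-sh, against 37.4, 36.5 and 31.1 in Scr-sh. Its groups were apart, and its log2 change of -0.70 did not pass (adjusted p = 0.0586 from limma, 0.0484 with a filter at the 50th percentile).

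Plakoglobin (JUP), which serves desmosomes and adherens junctions alike, was at 61.3, 45.0 and 38.5 in SALL4-sh, against 61.2, 77.9 and 83.8 in Scr-sh. SALL4-sh replicate 1 was level with Scr-sh replicate 1, so the groups met there, and the log2 change of -0.64 did not pass (adjusted p = 0.0921 from limma). Desmoplakin (DSP), the plaque protein that ties keratins to the desmosome, was at 33.7, 43.4 and 24.0 in SALL4-sh, against 36.9, 45.9 and 26.7 in Scr-sh. Here the arrays ran in parallel: replicate 2 was highest and replicate 3 lowest in both groups, and the spread within a group was wider than the difference between the groups (log2 change -0.12, 95% interval -0.71 to 0.47). Envoplakin (EVPL), the partner of periplakin, had a log2 change of 0.30 that did not pass. The plakophilins PKP1, PKP2 and PKP3 had log2 changes of -0.14, 0.03 and 0.01, none of which passed, and PKP1 stood at 8 in 2 SALL4-sh arrays and 1 Scr-sh array.

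Of the 4 polarity members PARD6B rose and the other 3 did not pass, with a median log2 change of 0.09 over the 4. PARD6B, the PAR6 scaffold that brings atypical protein kinase C to CDC42, was at 319.8, 259 and 267 in SALL4-sh, against 153, 139 and 155 in Scr-sh. Every SALL4-sh array was at least 1.67-fold above every Scr-sh array. By limma its log2 change was 0.92 with a standard error of 0.16 and an adjusted p of 0.00817 (0.0362 without the filter), or 1.89-fold with a 95% interval of 1.47 to 2.43. It passed with any 1 array left out, and the one-way test gave an adjusted p of 0.0527. PARD3, which binds PAR6, was at 104, 76.6 and 91.9 in SALL4-sh, against 90.9, 83.2 and 125 in Scr-sh, and the groups overlapped throughout (log2 change -0.12). The Crumbs proteins CRB3 and PATJ had log2 changes of 0.04 and 0.15 with overlapping groups.

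**Figure D3:**
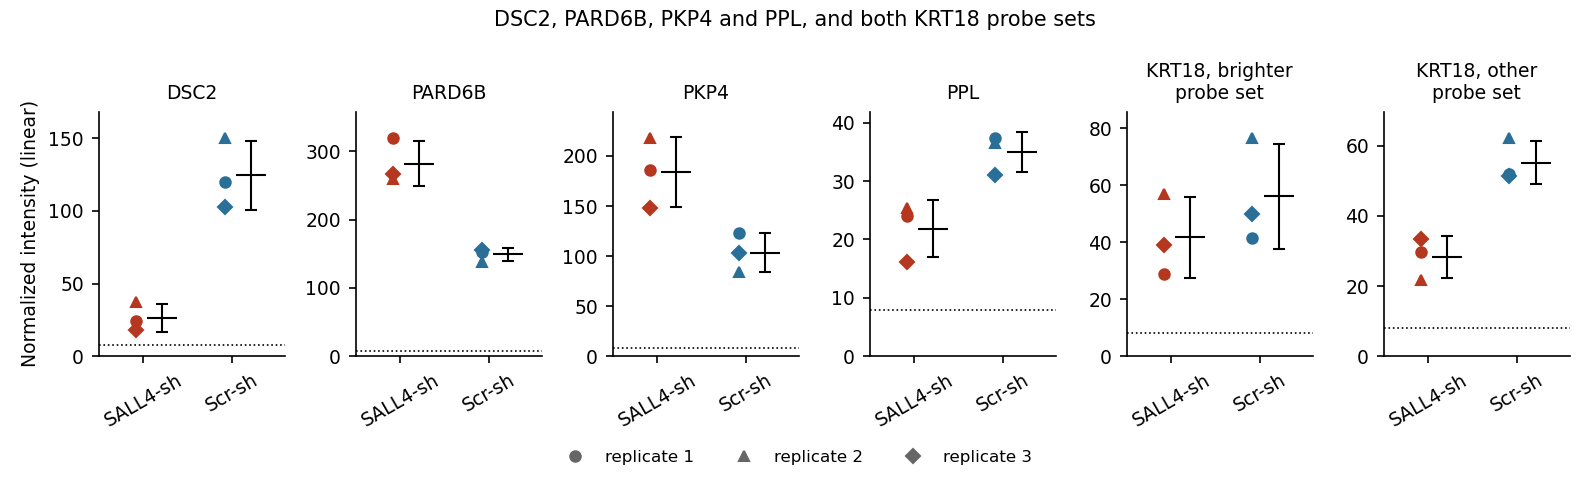
Normalized intensity (linear axis from 0) of DSC2, PARD6B, PKP4, PPL and both KRT18 probe sets on each array, with a symbol per replicate number, horizontal bars and whiskers for the mean and SD of 3 arrays, and a dotted line at the floor of 8. SALL4-sh lies below Scr-sh on every array for DSC2 and PPL and above it for PARD6B and PKP4, and the KRT18 probe sets differ in whether the groups overlap.

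Of the 7 tight junction members tested, 0 passed by limma or by the one-way test, 1 had an unadjusted p under 0.05 from limma (CGN), and the median log2 change was -0.21. TJP1, which encodes the scaffold ZO-1, was at 553, 566 and 551 in SALL4-sh, against 508, 574 and 452 in Scr-sh. Its groups overlapped, and its fold change was 1.09 with a 95% interval of 0.853 to 1.4. Cingulin (CGN), which couples ZO-1 to actomyosin, was at 35.1, 31.8 and 33.9 in SALL4-sh, against 38.3, 49.7 and 45.8 in Scr-sh. Its groups were apart by a factor of 1.09, and the log2 change of -0.40 did not pass (adjusted p = 0.167 from limma). TJP3, the ZO-3 scaffold, had a log2 change of 0.07.

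Of the 7 claudins, CLDN1, CLDN4 and CLDN6 were on the floor throughout. CLDN3 was at 52.0, 38.3 and 44.0 in SALL4-sh, against 43.2, 50.7 and 62.2 in Scr-sh, and CLDN12 at 54.5, 65.4 and 62.0 in SALL4-sh, against 58.3, 66.0 and 98.9 in Scr-sh. Both overlapped between the groups, with log2 changes of -0.21 and -0.26 that did not pass, and the upper end for CLDN12 rested on Scr-sh replicate 3. CLDN11, known from myelin and Sertoli cells, was at 14.2, 19.1 and 18.0 in SALL4-sh, against 20.3, 19.9 and 21.7 in Scr-sh, apart by a factor of 1.04 (log2 change -0.28, adjusted p = 0.364 from limma). CLDN7 stayed under 12.4 on every array.

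Of the 4 keratins, 0 passed by limma with the brightest probe set of each or by the one-way test, 0 had an unadjusted p under 0.05 from limma, and the median log2 change was -0.02. KRT8 was at 11.1, 8 and 9.38 in SALL4-sh, against 9.27, 8 and 9.76 in Scr-sh, with replicate 2 of each group on the floor. KRT19 was at 11.3, 11.3 and 13.3 in SALL4-sh, against 15.0, 10.2 and 13.9 in Scr-sh, and KRT7 lay between 12.7 and 15.3 over the 6 arrays. The values of these 3 keratins were under 16 on every array and overlapped between the groups.

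KRT18, the filament partner of KRT8, was the only member with 2 probe sets, and they differed. The brighter of them was at 28.8, 57.0 and 39.1 in SALL4-sh, against 41.5, 76.7 and 49.98 in Scr-sh, with replicate 2 highest in both groups and a log2 change of -0.44 that did not pass (adjusted p = 0.423 from limma). The other was at 29.7, 21.8 and 33.4 in SALL4-sh, against 52.0, 62.3 and 51.3 in Scr-sh. Its groups were apart, and it passed when probe sets were tested singly (log2 change -0.98, adjusted p = 0.0161 from limma over 14368 probe sets). With the mean of both probe sets KRT18 passed as well (log2 change -0.71, adjusted p = 0.0453 from limma). Brightness was judged by the mean log2 intensity over all 6 arrays. The brighter and the other probe set had linear means of 56.1 and 55.2 in Scr-sh, and of 41.7 and 28.3 in SALL4-sh. The 2 were thus close in Scr-sh, and the brightness that decided the choice differed mainly in SALL4-sh. KRT18 is known to have many processed pseudogenes of near-identical sequence, so its level here is uncertain, and which transcripts each probe set binds was not tested.

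Alpha-catenin (CTNNA1), which links cadherins to actin, was at 199.9, 143 and 169.8 in SALL4-sh, against 238, 191 and 213 in Scr-sh, and its log2 change of -0.33 did not pass. Of the regulators, GRHL2, a transcription factor that maintains epithelial junction genes, was on the floor on all 6 arrays. ESRP2, an epithelial splicing factor, lay between 9.51 and 14.9 and OVOL1, a repressor of ZEB genes, between 8.83 and 9.96, with log2 changes of 0.22 and -0.07 that did not pass.

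Within groups the members were about as steady as other genes: the pooled SD of log2 values had a median of 0.20 over the 28 members and 0.23 over all genes tested. It was widest for KRT18 (0.47), DSC2 (0.42) and DSP (0.41). Of the 25 members that did not pass, 13 had a 95% interval that lay within 1.5-fold in either direction, and 22 had an interval within 2-fold. Of these 22, 8 had every value under 16, where a 2-fold fall would have ended at the floor, so their narrow intervals do not bound a fall. All of these 8 but ESRP2 were also among the 13 within 1.5-fold. The 3 with intervals that reached beyond 2-fold were JUP, PPL and KRT18.

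Genes of the same structures outside the set were read beside it. Of 37 tested junction and polarity genes 2 rose and 2 fell, with a median log2 change of -0.03. Over all genes tested, 5.95% rose and 5.54% fell. At an unadjusted p under 0.05 from limma 5 of the 37 were higher and 6 lower, beside 13.6% and 11.1% of all genes tested. LSR, an angulin of tricellular contacts, was at 53.7, 55.1 and 58.5 in SALL4-sh, against 32.7, 29.1 and 34.6 in Scr-sh (log2 change 0.80, adjusted p = 0.0125 from limma). JAM3, a junctional adhesion molecule, was at 176, 165 and 161 in SALL4-sh, against 514, 375 and 485 in Scr-sh (log2 change -1.44, adjusted p = 0.00190 from limma), and CXADR, the coxsackievirus receptor at tight junctions, also fell (log2 change -0.87, adjusted p = 0.0157 from limma, 0.0801 without the filter). CDH1, which encodes E-cadherin, rose (log2 change 0.91, adjusted p = 0.00965 from limma), with 16.1 to 17.3 in SALL4-sh, against 8 to 10.5 in Scr-sh, where 1 array was on the floor and the change is thus a lower bound. Without the filter limma called 2 of the 46 measured genes of this list higher, LSR and CDH1 (adjusted p = 0.0295 and 0.0456). It called 2 lower, JAM3 and NECTIN1 (adjusted p = 0.0295 and 0.0343 from limma). Of all 18404 genes 1.18% were higher and 1.33% lower in that test. Of 18 tested keratins outside the set and 14 tested genes of the wider epithelial programme, 0 passed by limma. At an unadjusted p under 0.05 there were 1 and 0, and without the filter limma also called 0 of either list.

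**Figure D4:**
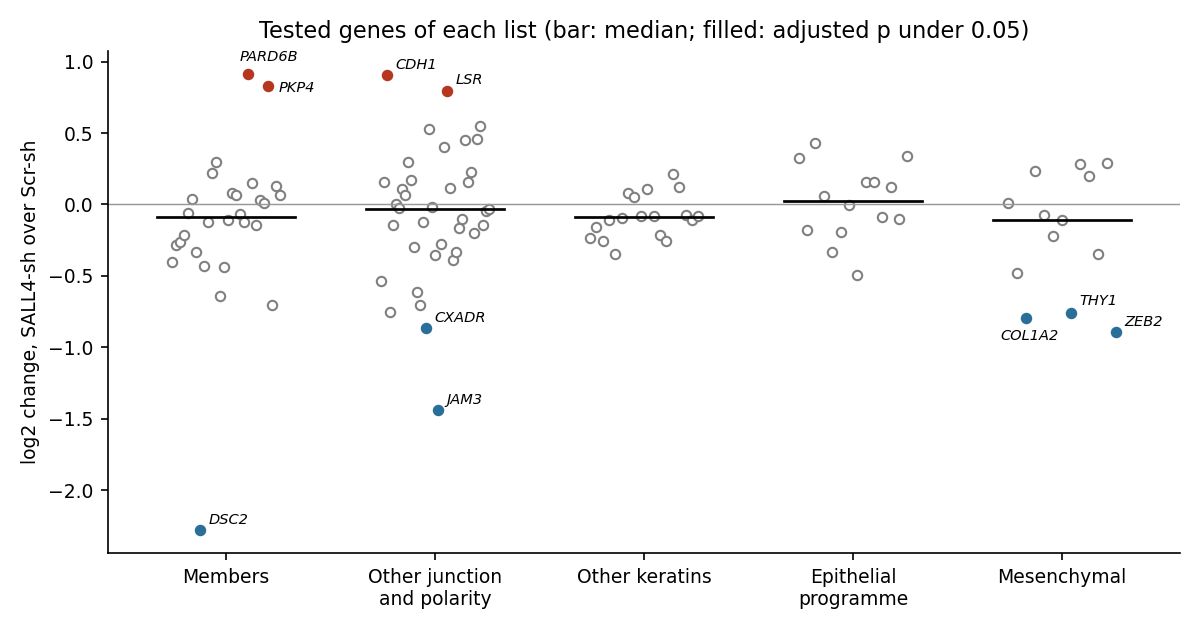
Log2 change (SALL4-sh minus Scr-sh) of each tested gene of the members and of 4 other lists, with filled points for an adjusted p under 0.05 from limma and bars for the median of each list. The medians lie between -0.11 (mesenchymal) and 0.03 (epithelial programme), and DSC2 at -2.28 is the largest change shown.

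The label of a lung carcinoma line was read against marker genes. EPCAM, an epithelial surface marker, was at 843, 1032 and 1113 in SALL4-sh, against 589.8, 898 and 749 in Scr-sh, and its log2 change of 0.43 did not pass (adjusted p = 0.227 from limma). VIM, the filament of mesenchymal cells, was at 1042, 940.5 and 1142 in SALL4-sh, against 1615, 1117 and 1275 in Scr-sh. Other genes of either kind gave no signal above the floor: RAB25, ELF3, EHF and MYO5B of the 20 epithelial programme genes, and FN1 and DCN of the 17 mesenchymal genes, stood at 8 on all 6 arrays. Of the 20, 11 were above the floor on every array, as were 12 of the 17. Of the mesenchymal genes 13 were tested, 3 fell and 0 rose, with a median log2 change of -0.11. Over all genes tested, 5.54% fell and 5.95% rose. At an unadjusted p under 0.05 from limma 4 of the 13 were lower and 0 higher, beside 11.1% and 13.6% of all genes tested. The 3 that fell by adjusted p were THY1, COL1A2 and ZEB2, the last a repressor of CDH1. The other transcription factors tested in this list did not pass. ZEB1, TWIST1 and TWIST2 had log2 changes of 0.29, 0.29 and 0.20, and SNAI1 of -0.22 (adjusted p = 0.550 to 0.681 from limma). ZEB2 was at 189.8, 172 and 149 in SALL4-sh, against 327, 307 and 310.1 in Scr-sh (log2 change -0.89, adjusted p = 0.00892 from limma). Without the filter 2 were called lower by limma, ZEB2 and COL1A1 (adjusted p = 0.0364 and 0.0387), while THY1 and COL1A2 were not (adjusted p = 0.0571 and 0.132). The summed intensity of the 17 was 1986 to 2167 in SALL4-sh and 2453 to 3099 in Scr-sh, and VIM, which did not pass (adjusted p = 0.297 from limma), was the largest term of each sum. Any part of these genes in the changes of the members was not tested. Of 12 leukocyte markers 7 were on the floor on all 6 arrays, and the summed intensity of the 12 was 146 to 157 in SALL4-sh and 148 to 185 in Scr-sh. Of the 4 leukocyte markers tested 0 passed by limma with or without the filter, and CD68 had an unadjusted p under 0.05 (log2 change -0.75). Of the 8 squamous markers 4 were tested and of the 8 lung lineage markers 6. In the squamous and lung lineage lists 0 passed by limma with the filter or without it, and 0 had an unadjusted p under 0.05.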

How the data were processed

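Biotin-labelled cRNA was prepared from 5 µg of total RNA, per the labels, and hybridised to 6 arrays. Normalized intensity on a linear scale was deposited for 32321 probe sets. RMA is named in the submitters' processing notes without a version. Every deposited value under 8 had been set to exactly 8, which hides differences between weak signals. The number of arrays limits the precision.

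Log2 intensities were fitted in R 4.3.3 with limma 3.58.1 (functions lmFit and eBayes), and p-values were adjusted by Benjamini-Hochberg (threshold 0.05). Probe sets with exactly 1 gene symbol in the platform annotation (19158) were used. Symbols were updated by gene identifier to the RefSeq table of GRCh38.p14, which changed 0 of them. Of several probe sets for a gene, the brightest on average was used. The weakest genes, up to the 25th percentile of mean log2 intensity, were left out first, because 3893 genes had 8 on every array, and such genes without spread lower the prior degrees of freedom (5.33 with the filter, 0.42 without). The fit was tested on simulated data.

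Every member was named, and array values were given for members that passed with or without the filter, for members whose groups were apart with means differing by over 1.4-fold, and for CLDN1, TJP1, KRT8, KRT18, KRT19, DSP, JUP and GRHL2 (OCLN, also in that rule, was not measured). Array values of CGN, CLDN3, CLDN11, CLDN12, DSG2, PARD3 and CTNNA1 were added after their values were seen. The members, the other gene lists and the tests were chosen with earlier results of these data known. Alternatives were other filters and normalizations, variance models, the replicate number as a block, the mean of probe sets, the one-way test, and each array left out.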

Additional observations from a re-analysis of the deposited data

How the results depend on the processing

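Over 17 alternatives and the 28 single members there were 467 values. Only the 3 called members could lose a call, and they did so in 12 values. Members not called gained one in 5 values. Filters, the trended robust fit, the one-way test and the block leave a log2 change as it is, and of the 281 values that a setting could alter, 261 kept their sign. PARD6B passed in 16 of the 17, DSC2 in 15 and PKP4 in 8. The 20 values that changed sign belong to 9 members with log2 changes within 0.13 of 0, none of them called.

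Without a filter limma called 218 genes higher and 244 lower, and the one-way test after the filter called 113 and 144. Leaving out each array in turn gave 185 (without SALL4-sh replicate 2) to 911 (without Scr-sh replicate 2) higher and 306 to 676 lower, with the same arrays at the ends. Only without Scr-sh replicate 2 were the counts within 1.5 times of the full ones. Among the members, 1 was higher without a filter, with only genes at the floor throughout left out, and after cyclic loess, and 0 with the one-way test, and 1 to 2 with an array left out (2 only without Scr-sh replicate 1). The count of lower members was 0 without a filter and with the one-way test, 1 with any array left out, and 2 with the 50th percentile filter, median centring, repeated quantile normalization, the replicate number as a block and the mean of probe sets. PPL was the added member in the first 4 and KRT18 in the last. The members' median log2 change was 0 without a filter, -0.21 with the 50th percentile filter and -0.12 to -0.029 with an array left out. Both filters change which members are tested.

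For the other junction and polarity genes the counts were 1 higher with the 50th percentile filter, 1 higher and 1 lower with the one-way test, 4 lower with array weights, and 0 (without SALL4-sh replicate 3) to 4 (without Scr-sh replicate 2) higher and 1 to 2 lower with an array left out. The mesenchymal count was 0 lower with the one-way test and 1 to 2 with an array left out. The cause of these shifts was not tested.

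With an array left out, log2 changes ran from -0.21 to 0.031 for CLDN7, -0.0070 to 0.12 for TJP3, -0.24 to 0.050 for PARD3, -0.029 to 0.10 for CRB3, -0.14 to 0.27 for PKP2, -0.11 to 0.14 for PKP3, -0.33 to 0.10 for DSP, -0.051 to 0.19 for KRT8 and -0.27 to 0.0035 for KRT19. With array weights PKP2 was at -0.048 and DSP at 0.013, and PKP3 was at -0.016 after median centring and -0.010 after repeated quantile normalization.

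Deviations from the group mean, correlated over genes, gave 0.144, 0.113 and -0.00069 for the same-numbered arrays of replicates 1, 2 and 3. Arrays of different numbers gave -0.152 to 0.034. Replicates 1 and 2 thus correlated best with their own number, and replicate 3 did not. The labels name no pairs, and the main fit took none. With the replicate number as a block 903 genes were higher and 803 lower. KRT18 (brighter probe set) and DSP then had adjusted p-values of 0.135 and 0.714 from limma, beside 0.423 and 0.837 without the block.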
